A study of Rattus norvegicus with 6 samples.

Results

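The enzymes of glycolysis and the target genes of the hypoxia-inducible factor (HIF) were examined as a set of 31 named genes in rat tendon stem/progenitor cells. They are a fixed list of names, drawn up with earlier results of these data known. On the side of glycolysis they are the glucose transporter Slc2a1, 14 enzymes from hexokinase to lactate dehydrogenase, the lactate exporter Slc16a3, the pyruvate dehydrogenase kinase Pdk1, and the bifunctional enzymes Pfkfb3 and Pfkfb4. On the side of HIF they are Hif1a, its hydroxylases Egln1 and Egln3, and 9 further genes that HIF is known to induce. Of these, 30 were found among the 33300 genes of the deposited table, and Egln1 was not analysed here. RNA was sequenced from cells kept for 7 days in plain F12 medium (Control, 3 libraries) or in F12 with 500 uM N-acetyl-cysteine (NAC, 3 libraries), a thiol antioxidant from which cells make cysteine and glutathione. The labels describe the cells of both groups as mesenchymal stem cells from tendon under tenogenic differentiation. They give no strain, age or number of animals and do not say whether libraries of the same group are separate cultures. A p-value here measures only the spread between these libraries, which may be technical. The comparison asks how NAC changes the transcripts of these cells.

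Glycolysis splits glucose into pyruvate in the cytosol, and lactate dehydrogenase and the monocarboxylate transporters then remove the product as lactate. HIF is a transcription factor made of an oxygen-labile alpha subunit (HIF-1α from Hif1a, HIF-2α from Epas1) and a stable partner (Arnt). Where oxygen is plentiful, the Egln hydroxylases mark the alpha subunit for destruction through Vhl, and where it is scarce HIF induces nearly every glycolytic enzyme together with genes of blood vessel growth, acid export and mitophagy. Tendon is a tissue with few blood vessels.

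HIF binds a short core in its target promoters. The core was searched as ACGTG or GCGTG on both strands (CACGT and CACGC on the strand shown). Overlapping matches were counted separately, so that CACGTG holds 2. RefSeq promoter windows (rat build GRCr8, 250 bases before to 50 after a transcription start) were found for 28 of the 30 genes. Of these 28 genes 20 held a match, against 12253 of 27457 genes in the whole RefSeq table (44.6%). Counted by window, 21 of the 34 windows of these genes held a match, against 13937 of 33469 (41.6%). A match is a run of letters in this window and shows no binding. Of the 6 genes called between NAC and Control by the test described below, 4 held a match, and of the 21 tested genes that were not called 16 did. The 4 windows shown are those of Pfkfb3 (chr17:71944683-71944982, plus strand) and Car9 (chr5:62558774-62559073, plus strand), whose transcripts were higher with NAC, and of Ldha (chr1:106507842-106508141, plus strand) and Bnip3 (chr1:203154913-203155212, minus strand), well known HIF targets whose transcripts were not called. They are given 5′ to 3′ on the gene's strand, with matches in capitals.
Pfkfb3: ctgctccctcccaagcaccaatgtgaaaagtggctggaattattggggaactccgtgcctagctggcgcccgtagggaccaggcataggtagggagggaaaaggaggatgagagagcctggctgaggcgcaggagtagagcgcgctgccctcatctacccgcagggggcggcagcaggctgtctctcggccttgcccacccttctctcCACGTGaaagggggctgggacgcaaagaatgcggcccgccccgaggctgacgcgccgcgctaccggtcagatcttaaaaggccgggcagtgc
Car9: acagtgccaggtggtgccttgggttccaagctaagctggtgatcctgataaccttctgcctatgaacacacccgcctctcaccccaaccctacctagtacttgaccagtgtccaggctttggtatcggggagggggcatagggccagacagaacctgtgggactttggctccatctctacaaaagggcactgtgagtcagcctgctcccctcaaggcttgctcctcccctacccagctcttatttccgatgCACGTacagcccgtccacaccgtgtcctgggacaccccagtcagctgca
Ldha: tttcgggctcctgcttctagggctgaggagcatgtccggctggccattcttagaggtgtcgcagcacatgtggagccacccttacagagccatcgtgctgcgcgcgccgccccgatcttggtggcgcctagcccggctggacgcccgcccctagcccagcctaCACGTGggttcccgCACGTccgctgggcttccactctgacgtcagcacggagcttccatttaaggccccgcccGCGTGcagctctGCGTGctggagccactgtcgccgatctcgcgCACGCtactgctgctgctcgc
Bnip3: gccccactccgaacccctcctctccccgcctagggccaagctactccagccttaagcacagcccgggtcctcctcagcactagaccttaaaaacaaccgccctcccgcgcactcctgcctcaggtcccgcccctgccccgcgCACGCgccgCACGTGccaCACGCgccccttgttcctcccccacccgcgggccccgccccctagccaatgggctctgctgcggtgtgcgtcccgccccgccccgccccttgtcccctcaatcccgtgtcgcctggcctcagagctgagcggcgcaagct
The Pfkfb3 match is a full palindrome whose overlapping pair starts 42 and 41 bases before the transcription start. In Car9 the match begins 1 base past the start. The Ldha window holds 6 matches and the Bnip3 window 4, against 2 in Pfkfb3 and 1 in Car9. The windows of Egln3 and Adm, which were also higher with NAC, hold none of these letters.

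**Figure D1:**
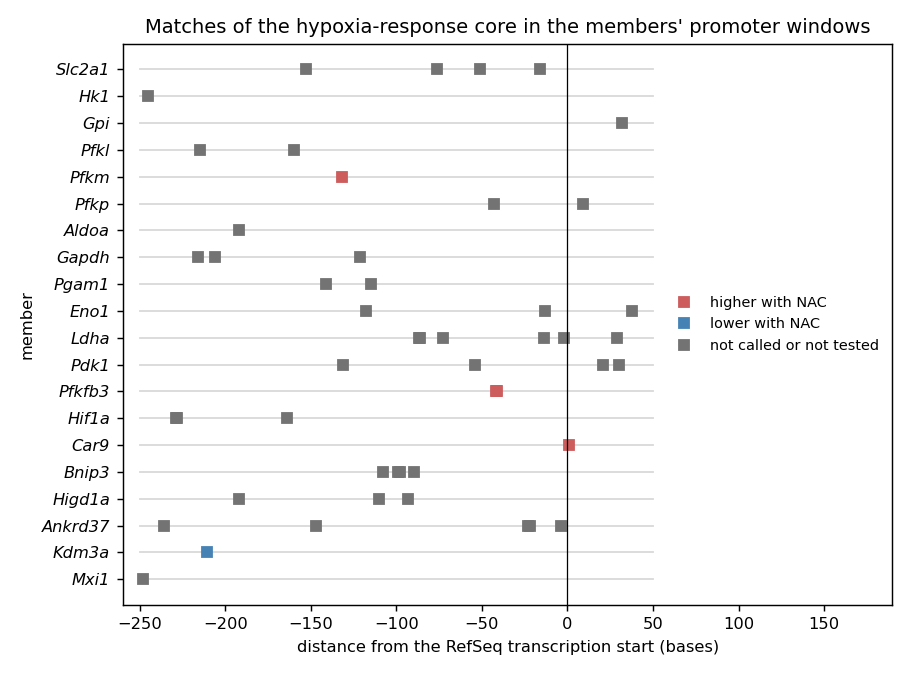
Position of each match of the core (ACGTG or GCGTG, either strand) in the RefSeq promoter windows of the 20 genes that hold one, in bases from the transcription start at 0, with grey lines for the window from 250 bases before to 50 after it. Squares are coloured by the result of the NAC comparison, and most of the matches belong to genes that were not called.

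Levels are given as FPKM (fragments per kilobase of gene length, scaled by the authors to sequencing depth), always in the order of libraries 1, 2 and 3 of a group. Each library held 12487215 to 14941949 reads, recovered as whole numbers from the deposited values, and for a gene of median length a single read counted for 0.0584 to 0.068 FPKM. Tendon markers were present (their sum was 8456 to 8553 FPKM in Control and 12355 to 13245 FPKM in NAC, mostly collagen I and decorin). Scx, the tendon transcription factor, was at 13.9, 12.1 and 11.4 FPKM in Control and 11.2, 12.4 and 11.2 FPKM in NAC. Mkx, also a tendon marker, was at 5.24, 4.90 and 5.69 FPKM in Control and 2.82, 3.93 and 4.95 FPKM in NAC. Tnmd was scarce, at 1.80, 1.06 and 1.38 FPKM in Control and 1.93, 2.87 and 2.86 FPKM in NAC. Scx, Mkx and Tnmd were not called by limma (adjusted p = 0.519, 0.192 and 0.0909), nor were Fmod and Thbs4 (0.160 and 0.0916). The remaining tendon markers, Col1a1, Col1a2 and Dcn, were called higher with NAC. Their log2 fold changes were 0.997, 0.416 and 0.324 (limma adjusted p = 0.000406, 0.0458 and 0.00649). Markers of endothelium and leukocytes summed to at most 0.75 and 0.199 FPKM in any library, with Cdh5, Ptprc and Cd3e at 0. Those of red cells summed to at most 0.628 FPKM, and the 6 skeletal muscle markers to 6.64 to 7.07 FPKM in Control and 7.18 to 8.33 FPKM in NAC. Control 2 stood apart. It was the Control library farthest from the other 2 in 20 of the 30 genes and the highest of the 3 in 21. Among the NAC libraries NAC 2 was the farthest in 16 of the 30 genes and the lowest in 16. The counts are given below with and without Control 2, and also with each other library left out. These are bulk samples, in which fewer cells expressing a gene and less RNA per cell cannot be told apart.

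Each gene with a mean of at least 1 FPKM over the 6 libraries was tested with limma on log2(FPKM + 1), and a gene was called at a Benjamini-Hochberg adjusted p under 0.05 over all 12733 tested genes. Of the 31 named genes 29 were tested, 5 were higher with NAC (Pfkm, Pfkfb3, Egln3, Adm and Car9), 1 was lower (Kdm3a) and 23 were not called. Over all tested genes 8.80% were called, 6.08% higher (774 genes) and 2.72% lower (346 genes), against 20.7% of these 29. The median log2 fold change of the 29 was 0.049, beside -0.0063 for all tested genes, and 20 of the 29 lay above 0. Scaled to library totals instead of by the authors' factors, the split over all genes was 467 higher and 3722 lower and the median of the 29 was -0.12, with 2 higher and 9 lower (3.67% and 29.2% of all genes). Quantile normalization gave 4 higher and 3 lower of the 29 (4.45% and 3.20% of all genes). Without Control 2 the calls among the 29 came to 7 higher and 1 lower (6.75% and 2.73% of all genes), with Pfkp and Slc16a3 added. Limma called 1 of the 29 higher when Control 1, NAC 1 or NAC 2 was left out (2.98%, 2.31% and 2.07% of all genes) and 2 when Control 3 or NAC 3 was (2.84% and 3.58% of all genes). In each of these 5 fits 0 were lower (0.652%, 0.440%, 0.401%, 0.683% and 1.11% of all genes, in the same order). At an unadjusted limma p under 0.05, 1 or 2 of the 29 were lower in them, beside 1148 to 1281 of the 12733 tested genes. With all 6 libraries 9 of the 29 were higher and 1 was lower at that p, beside 1836 and 1519 of all tested genes. Below, a bare number in parentheses after a library left out or another scaling is the log2 fold change in that fit. With voom, limma's weighted fit on the recovered reads, 6 were higher and 1 was lower (8.28% and 4.06% of all genes). The groups did not overlap, with NAC above, in 10 of the 29 and, with NAC below, in 3, against 16.7% and 15.9% of all tested genes.

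**Figure D2:**
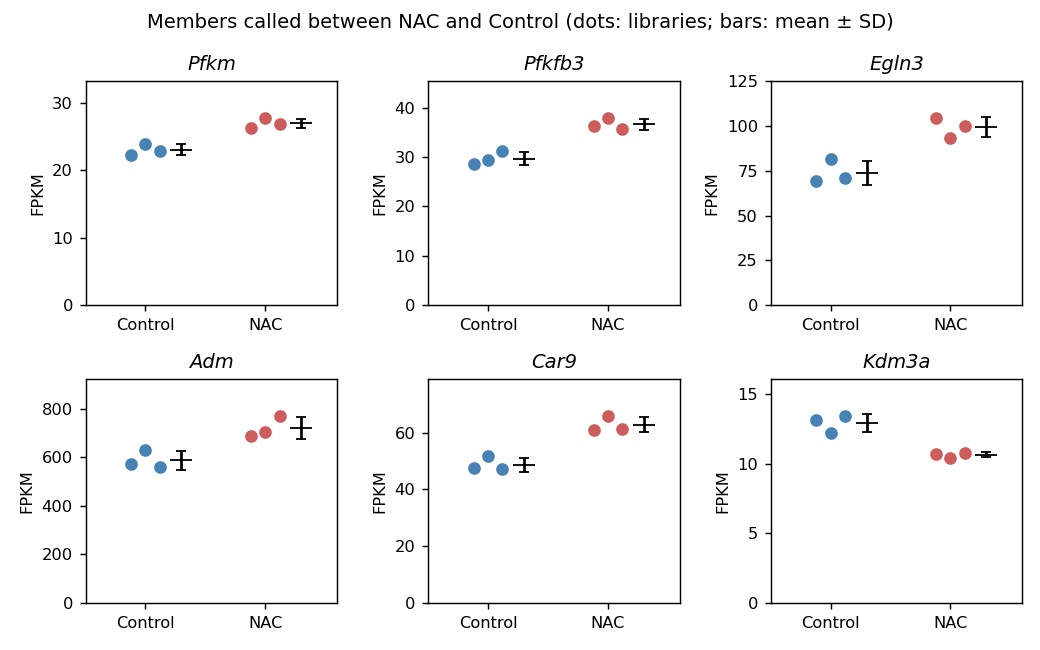
FPKM of the 6 called genes in each library (dots, libraries 1 to 3 from left to right in each group) with the mean ± SD of 3 libraries beside them, on axes that start at 0. All 3 NAC values lie above all 3 Control values in Pfkm, Pfkfb3, Egln3, Adm and Car9, and below them in Kdm3a.

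Glucose entry did not pass the test at any of its 3 genes. Slc2a1, the basal glucose transporter GLUT1, stood at 60.3, 70.1 and 60.6 FPKM in Control and 61.7, 70.0 and 66.7 FPKM in NAC (95% interval of the log2 fold change -0.12 to 0.23, limma adjusted p = 0.678). The groups overlapped, and Slc2a1 made up 97.8 ± 0.221% in Control and 96.7 ± 0.772% in NAC (SD, n = 3) of the summed FPKM of Slc2a1, Slc2a3 and Slc2a4. Hk1, the housekeeping hexokinase that traps glucose as glucose 6-phosphate, was at 56.7, 60.0 and 57.2 FPKM in Control and 55.7, 55.3 and 54.0 FPKM in NAC. All 3 NAC values of Hk1 lay below the Control values, by a margin that did not pass the test (log2 fold change -0.074, limma adjusted p = 0.280). Hk2, the inducible hexokinase and a HIF target, was at 25.2, 26.8 and 23.8 FPKM in Control and 26.9, 26.2 and 25.1 FPKM in NAC and overlapped between groups (interval -0.086 to 0.18). Hk2 made up 30.8, 30.8 and 29.4% in Control and 32.6, 32.1 and 31.7% in NAC of the summed hexokinase FPKM, so its share was higher in each NAC library while neither gene was called. With voom, 0 of these 3 genes were called, beside 8.28% higher and 4.06% lower over all tested genes. An unadjusted limma p under 0.05 was found for 0 of the 3, beside 1836 higher and 1519 lower of the 12733 tested genes.

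In the upper part of the pathway 1 of 6 genes was called, beside 8.80% of all tested genes. Pfkm (ENSRNOG00000057988, chromosome 7, 139685573 to 139722132, plus strand in the deposited table, build not given in the sources used here) encodes the muscle-type subunit of phosphofructokinase, the committed step of glycolysis. Its levels were 22.3, 23.9 and 22.9 FPKM in Control and 26.3, 27.7 and 27.0 FPKM in NAC, a rise of 17.1% in the mean (log2 fold change 0.22 ± 0.0450 SE, limma adjusted p = 0.0328). No Control value reached the lowest NAC value. The liver-type subunit Pfkl, the most abundant of the 3, was at 85.2, 86.2 and 85.1 FPKM in Control and 88.7, 84.3 and 88.0 FPKM in NAC and overlapped between groups (interval -0.060 to 0.11). Pfkp, the platelet-type subunit, was at 34.4, 42.0 and 35.6 FPKM in Control and 42.0, 41.1 and 41.3 FPKM in NAC (log2 fold change 0.15, limma adjusted p = 0.251), and Control 2 alone lay at the NAC level. Without Control 2 the log2 fold change of Pfkp was 0.24 (limma adjusted p = 0.0224). Summed over the 3 subunits, phosphofructokinase went from 146 ± 5.51 to 155 ± 2.08 FPKM (SD, n = 3). The share of Pfkm was 15.7, 15.7 and 16.0% in Control and 16.8, 18.1 and 17.3% in NAC, with no overlap. The call of Pfkm was kept without Control 2 and lost without any 1 of the other 5 libraries (0.20 to 0.24, limma adjusted p of 0.0839 to 0.116). It was also lost under library totals (0.051). The summed skeletal muscle markers given above also did not overlap between the groups, with NAC higher, and their part in the Pfkm result was not tested. They were led by Acta1, at 4.25, 3.66 and 4.70 FPKM in Control and 3.64, 5.12 and 4.31 FPKM in NAC. Des came next, at 2.07, 3.07 and 1.97 FPKM in Control and 3.11, 2.87 and 3.21 FPKM in NAC. The mean of Des went from 2.37 to 3.07 FPKM and that of Acta1 from 4.20 to 4.36 FPKM. Both overlapped between groups and were not called (limma adjusted p = 0.247 and 0.880). Myod1 stayed under 0.38 FPKM and Myog, Ckm and Myh3 under 0.06 FPKM in every library.

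Gpi, which isomerises glucose 6-phosphate, was at 208, 208 and 205 FPKM in Control and 221, 214 and 228 FPKM in NAC, with NAC above Control in every library. Its interval lay above 0 (0.0081 to 0.18) while the adjusted p did not pass (0.159, limma). Aldoa, the main aldolase, was among the most abundant of these genes at 704, 750.4 and 704 FPKM in Control and 744, 723 and 772 FPKM in NAC (interval -0.050 to 0.16). Aldoa made up 96.1 ± 0.311% in Control and 96.3 ± 0.0848% in NAC (SD, n = 3) of the aldolase FPKM. Tpi1, which interconverts the triose phosphates that aldolase makes, stood only at 14.2, 19.7 and 16.9 FPKM in Control and 15.3, 15.8 and 20.0 FPKM in NAC (interval -0.32 to 0.34), with wide overlap. A row that the table describes as triosephosphate isomerase, LOC100911515, held more signal than Tpi1 itself, at 85.4, 75.3 and 57.4 FPKM in Control and 122, 73.3 and 140.5 FPKM in NAC. Reads of one may be counted under the other, so the Tpi1 level is uncertain. With a further row of about 1 FPKM described as the same enzyme, the 3 summed, 84.6% of it outside the Tpi1 row, came to 91.0 ± 13.9 FPKM in Control and 130.1 ± 36.4 FPKM in NAC (log2 fold change 0.48, limma adjusted p = 0.217).

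None of the 5 enzymes of the lower part of the pathway was called, by limma or by voom. Over all tested genes limma called 8.80%, and voom called 8.28% higher and 4.06% lower. An unadjusted limma p under 0.05 was found for 2 of the 5, beside 1836 higher and 1519 lower of the 12733 tested genes. Gapdh, which oxidises glyceraldehyde 3-phosphate and makes NADH, was at 783, 847 and 815 FPKM in Control and 791, 763 and 832 FPKM in NAC (interval -0.15 to 0.079). The table holds 15 further rows described as this enzyme, with 34.3% of the summed FPKM. With these added the log2 fold change was -0.036 (limma adjusted p = 0.680). Pgk1, the first ATP-yielding step, was at 537, 542 and 546 FPKM in Control and 567, 573 and 601 FPKM in NAC (interval 0.013 to 0.18, limma adjusted p = 0.144). Pgam1, which moves the phosphate group to make 2-phosphoglycerate, was at 418, 431 and 412 FPKM in Control and 459, 443 and 452 FPKM in NAC (interval 0.020 to 0.19, limma adjusted p = 0.119). In both Pgk1 and Pgam1 the lowest NAC value lay above the highest Control value, and these are the 2 genes with the unadjusted p under 0.05. Eno1, the main enolase, was at 559.7, 609.7 and 578 FPKM in Control and 537, 545 and 591 FPKM in NAC and overlapped (interval -0.19 to 0.061). Pkm, the pyruvate kinase gene, was at 631, 666 and 654 FPKM in Control and 635, 653 and 724 FPKM in NAC (interval -0.091 to 0.18), with NAC 3 above the other 5 libraries. A second row under the name Pkm, on chromosome 20, held 6.73% of their sum. The rows described as alpha-enolase held 5.21% of the Eno1 sum. Adding them left Pkm and Eno1 not called (limma adjusted p = 0.689 and 0.472).

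At the exit of the pathway, Ldha, which reduces pyruvate to lactate and regenerates NAD+, was at 746, 780.1 and 766 FPKM in Control and 777, 773 and 837 FPKM in NAC and was not called (interval -0.046 to 0.16, limma adjusted p = 0.452). Ldha made up 97.3 ± 0.389% in Control and 97.0 ± 0.261% in NAC (SD, n = 3) of the lactate dehydrogenase FPKM. Slc16a3, the lactate exporter MCT4 and a HIF target, was at 108, 129 and 114 FPKM in Control and 134, 146 and 149 FPKM in NAC. All NAC values of Slc16a3 exceeded all Control values, by 22.5% in the mean, but Slc16a3 did not pass the test (log2 fold change 0.29 ± 0.0740 SE, limma adjusted p = 0.0576). It passed with voom (limma adjusted p = 0.0177), when only genes of at least 5 FPKM were tested (adjusted p = 0.0434) and without Control 2, where its log2 fold change was 0.37 (limma adjusted p = 0.0180). It did not pass under library totals (0.12, limma adjusted p = 0.223), under quantile normalization (0.19, adjusted p = 0.109), with no filter (adjusted p = 0.106) or without any 1 of the other 5 libraries (0.24 to 0.34, limma adjusted p of 0.0883 to 0.164). Among the monocarboxylate transporters Slc16a1, Slc16a3 and Slc16a7, the share of Slc16a3 was 39.4, 45.8 and 42.0% in Control and 45.6, 48.6 and 48.8% in NAC. Pdk1, a kinase that HIF induces and that holds pyruvate back from the mitochondria, was at 25.7, 24.1 and 25.7 FPKM in Control and 24.3, 21.2 and 26.4 FPKM in NAC, with overlap (interval -0.26 to 0.12). Of these 3 genes 0 were called by limma, beside 8.80% of all tested genes. Only 1, Slc16a3, had an unadjusted p under 0.05, beside 1836 higher and 1519 lower of the 12733 tested genes.

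Along the chain from hexokinase to lactate dehydrogenase, 1 of 14 enzymes was called, in the higher direction, beside 6.08% of all tested genes. The 14 log2 fold changes ran from -0.074 (Hk1) to 0.22 (Pfkm), with a median of 0.049 and 11 above 0. Under library totals the median of the 14 was -0.12, with 0 higher and 4 lower (Hk1, Pfkl, Gapdh and Eno1), beside 3.67% higher and 29.2% lower over all genes. With quantile normalization it was -0.10, with 1 higher and 2 lower, beside 4.45% and 3.20% over all genes. The 14 took 0.858, 0.888 and 0.877% of the recovered reads in Control and 0.780, 0.772 and 0.839% in NAC. Their summed FPKM was 4947 ± 136 in Control and 5072 ± 193 in NAC (SD, n = 3). The share of reads lay lower in each NAC library while the summed FPKM overlapped. The authors' scaling total exceeded the recovered reads by 1.02 to 1.04 times in Control and fell short of them, at 0.909 to 0.925 times, in NAC.

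Pfkfb3 was the regulator of glycolysis that rose. It encodes the bifunctional enzyme that makes fructose 2,6-bisphosphate, the strongest activator of phosphofructokinase, and it is a HIF target (ENSRNOG00000018911, chromosome 17, 70684134 to 70713726, plus strand). Its levels were 28.5, 29.3 and 31.2 FPKM in Control and 36.4, 37.8 and 35.8 FPKM in NAC, a rise of 23.6% in the mean (log2 fold change 0.30 ± 0.0480 SE, limma adjusted p = 0.0150). The lowest NAC value exceeded the highest Control value. Pfkfb3 made up 86.5 ± 1.47% in Control and 88.9 ± 0.442% in NAC (SD, n = 3) of the FPKM of the 4 bifunctional enzymes. Pfkfb2 made up 9.99 ± 0.744% in Control and 7.48 ± 0.269% in NAC. The call was kept without Control 2, Control 3 or NAC 3 and lost without Control 1, NAC 1 or NAC 2 (log2 fold changes 0.27 to 0.30, limma adjusted p 0.0546 to 0.0688). Library totals also ended it (0.13). Pfkfb4, a close relative, had 0.190, 1.17 and 1.49 FPKM in Control and 1.03, 1.22 and 0.900 FPKM in NAC. These values rest on 3 to 25 reads, and their mean lay just under the minimum for testing. A second row under the name Pfkfb4 was at 1.06, 0.729 and 0.599 FPKM in Control and 1.11, 0.755 and 0.504 FPKM in NAC. It held 44.3% of their sum, which was 1.74 ± 0.435 FPKM in Control and 1.84 ± 0.387 FPKM in NAC (SD, n = 3). Summed, Pfkfb4 reached the minimum and was not called (log2 fold change 0.053, limma adjusted p = 0.875).

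**Figure D3:**
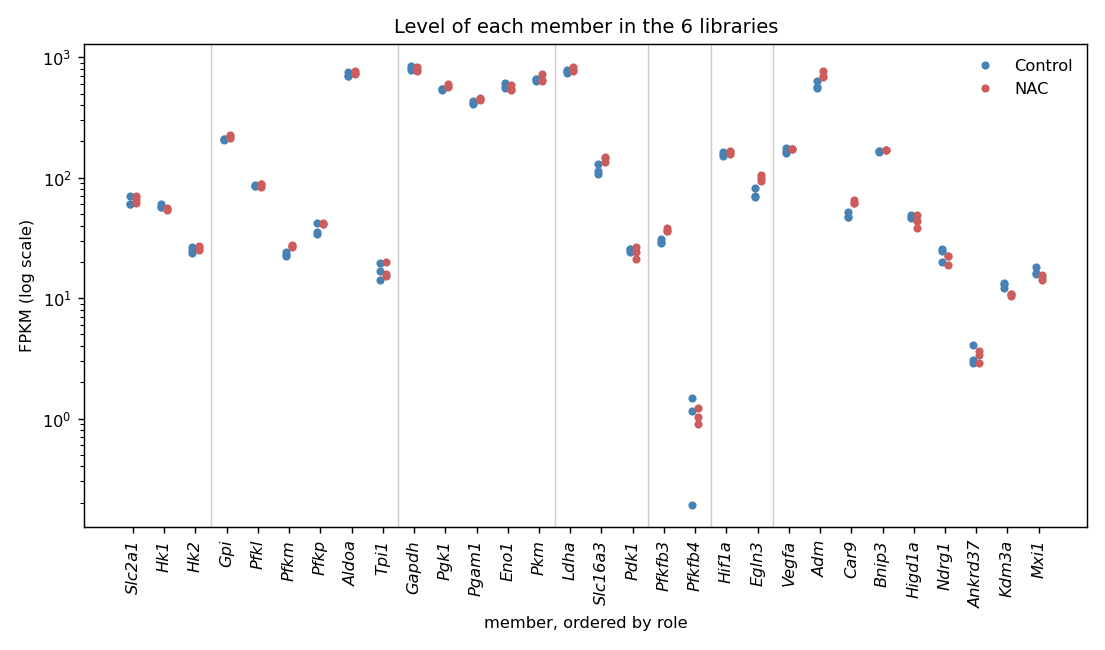
FPKM (log scale) of the 30 genes in the 3 Control and 3 NAC libraries, ordered by role from glucose entry at the left to HIF targets at the right, with grey lines between roles. The levels span from under 1.5 FPKM in Pfkfb4 to between 704 and 847 FPKM in Aldoa, Gapdh and Ldha, and within a gene the groups lie close together.

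On the HIF side, 3 of 11 tested genes were higher and 1 was lower, beside 6.08% and 2.72% of all tested genes. Without any 1 library but Control 2, limma called 1 of the 11 higher and 0 lower. Over all genes these fits called 2.07% to 3.58% higher and 0.401% to 1.11% lower. In them 1 or 2 of the 11 were lower at an unadjusted limma p under 0.05, beside 1148 to 1281 of the 12733 tested genes. Hif1a itself was at 156, 162 and 151 FPKM in Control and 165, 164 and 156 FPKM in NAC (interval -0.048 to 0.15, limma adjusted p = 0.489), so its transcript overlapped between groups. HIF-1α is controlled mainly through protein stability, which these data do not measure. Egln3 (ENSRNOG00000005053, chromosome 6, 75050329 to 75075795, minus strand) encodes the prolyl hydroxylase PHD3, which marks HIF alpha for destruction and is itself induced by HIF. Its levels were 69.3, 81.4 and 70.8 FPKM in Control and 104, 93.2 and 100.3 FPKM in NAC, a rise of 34.5% (log2 fold change 0.42 ± 0.0726 SE, limma adjusted p = 0.0187). That was the largest log2 fold change among the 29 tested genes, and the groups did not overlap. The call was kept without Control 2 or NAC 2 and lost without Control 1, Control 3, NAC 1 or NAC 3, with log2 fold changes of 0.38 to 0.42 and limma adjusted p of 0.0596 to 0.0733. It was also lost with the replicate number as a block (limma adjusted p = 0.0670).

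Car9 (ENSRNOG00000017073, chromosome 5, 59008933 to 59015528, plus strand) encodes carbonic anhydrase IX, a membrane enzyme that helps cells export acid and one of the most HIF-dependent transcripts known. It stood at 47.5, 51.6 and 47.1 FPKM in Control and 61.1, 65.9 and 61.4 FPKM in NAC, a rise of 28.8% (log2 fold change 0.36 ± 0.0521 SE, limma adjusted p = 0.0112). The groups were well apart, with every NAC library above every Control library. Car9 was the most stable call of the set, kept under 12 of 13 alternatives, and without NAC 2 its log2 fold change was 0.32 (limma adjusted p = 0.0511). Adm (ENSRNOG00000027030, chromosome 1, 175445088 to 175447259, plus strand) encodes adrenomedullin, a vasodilator peptide, and was the most abundant of the 9 HIF targets of the set outside glycolysis. Its levels were 571, 632 and 559.99 FPKM in Control and 686, 705 and 770.1 FPKM in NAC, a rise of 22.6% (log2 fold change 0.29 ± 0.0638 SE, limma adjusted p = 0.0390). Its groups did not overlap, but the call was kept without Control 2 alone and lost without any 1 of the other 5 libraries (log2 fold changes 0.24 to 0.33, limma adjusted p 0.0785 to 0.120). It was also lost under quantile normalization (0.070), under library totals (0.12) and with no filter on low values (limma adjusted p = 0.0856).

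Kdm3a (ENSRNOG00000007814, chromosome 4, 99503176 to 99546905, minus strand) moved the other way. It encodes a histone H3 lysine demethylase that depends on oxygen and is induced by HIF. It stood at 13.1, 12.2 and 13.4 FPKM in Control and 10.7, 10.4 and 10.8 FPKM in NAC, a fall of 17.6% in the mean. No NAC value reached the lowest Control value (log2 fold change -0.26 ± 0.0537 SE, limma adjusted p = 0.0347). The call was kept without Control 2 and lost without any 1 of the other 5 libraries, with log2 fold changes of -0.26 to -0.23 and limma adjusted p of 0.0833 to 0.117. With no filter on low values the limma adjusted p was 0.0542. Mxi1, a Myc antagonist that HIF induces, was at 15.7, 16.3 and 18.1 FPKM in Control and 15.5, 14.3 and 15.0 FPKM in NAC, also with all NAC values below all Control values, and was not called (log2 fold change -0.15, limma adjusted p = 0.203).

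The other 5 HIF targets were not called. Vegfa, the main angiogenic growth factor, was at 167, 176 and 160.3 FPKM in Control and 175, 174 and 174 FPKM in NAC (interval -0.042 to 0.15), with the 3 NAC values inside the Control range. Bnip3, a mitophagy receptor of the outer mitochondrial membrane, was at 165, 167 and 164 FPKM in Control and 171, 170.3 and 171 FPKM in NAC and lay higher in each NAC library by a margin that did not pass (log2 fold change 0.045, limma adjusted p = 0.392). Its interval, -0.027 to 0.12, was the narrowest of the HIF targets. Higd1a, a mitochondrial survival protein, was at 46.9, 49.1 and 46.5 FPKM in Control and 43.9, 38.3 and 49.3 FPKM in NAC (interval -0.33 to 0.087), and NAC 3 lay above all Control libraries while NAC 1 and NAC 2 lay below them. Ndrg1, a stress-response gene, was at 24.6, 19.9 and 25.5 FPKM in Control and 22.3, 18.7 and 22.5 FPKM in NAC (interval -0.40 to 0.13), with library 2 the lowest of each group. Ankrd37, a small ankyrin repeat protein, was at 4.08, 2.88 and 3.05 FPKM in Control and 3.63, 2.87 and 3.37 FPKM in NAC (interval -0.32 to 0.30). These values rest on 32 to 49 reads per library, and a change of a size within that interval remains possible.

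**Figure D4:**
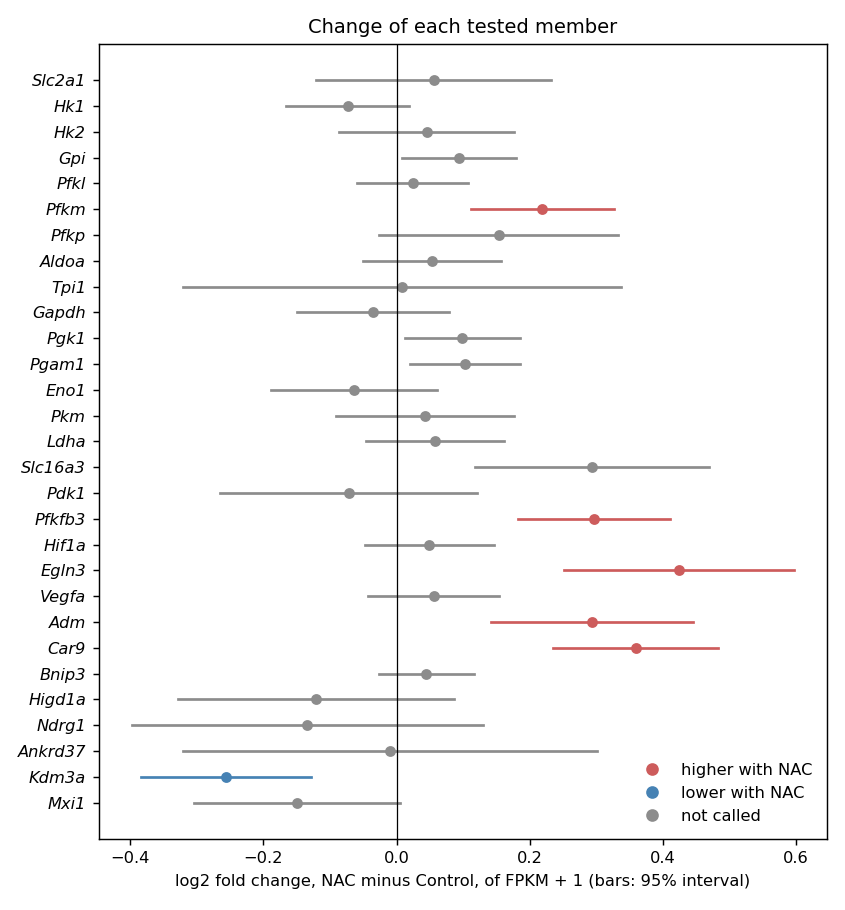
Log2 fold change (NAC minus Control, of FPKM + 1) of the 29 tested genes with its 95% interval from limma, in order of role, coloured by the call. The 5 higher genes lie between 0.22 and 0.42 and Kdm3a at -0.26, while the intervals of 10 of the 14 enzymes from hexokinase to lactate dehydrogenase include 0.

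The genes around these in the same pathways were taken from lists of 105 further genes, 83 of them tested, of which 13 were higher and 4 lower (6.08% and 2.72% of all genes). Their median log2 fold change was 0.045, beside -0.0063 over all genes. These counts became 12 and 4 with Control 2 left out (6.75% and 2.73% of all genes), 4 and 2 with Control 1 left out (2.98% and 0.652%), and 4 and 3 with Control 3 left out (2.84% and 0.683%). They were 1 and 2 with NAC 1 left out (2.31% and 0.440%) or NAC 2 left out (2.07% and 0.401%), and 5 and 2 with NAC 3 left out (3.58% and 1.11%). Among 13 tested genes of the HIF subunits and their turnover, 2 were higher, beside 6.08% of all tested genes. Arnt2, an alternative partner of the alpha subunits, was at 22.4, 20.5 and 22.1 FPKM in Control and 30.9, 30.4 and 29.7 FPKM in NAC (log2 fold change 0.47 ± 0.0477 SE, limma adjusted p = 0.00312), and the call was kept without any 1 of the 6 libraries. Epas1, which encodes HIF-2α, was at 56.2, 53.2 and 55.3 FPKM in Control and 63.2, 61.9 and 64.3 FPKM in NAC (log2 fold change 0.20 ± 0.0383 SE, limma adjusted p = 0.0278). The Epas1 call was kept without Control 2 and lost without any 1 of the other 5 libraries (0.18 to 0.21), under library totals (0.026) and under quantile normalization (0.15). Epas1 made up 26.5, 24.7 and 26.8% in Control and 27.7, 27.3 and 29.1% in NAC of the summed FPKM of the HIF alpha genes, and Hif1a nearly all of the rest, with Hif3a at 0. Arnt, the usual partner, was at 26.5 ± 0.605 FPKM in Control and 25.3 ± 0.372 FPKM in NAC (SD, n = 3), and Vhl was at 20.1 ± 0.793 FPKM in Control and 18.4 ± 1.18 FPKM in NAC. Another prolyl hydroxylase, Egln2, was at 28.8 ± 0.766 FPKM in Control and 29.4 ± 1.62 FPKM in NAC. The asparaginyl hydroxylase Hif1an was at 10.3 ± 0.533 FPKM in Control and 9.03 ± 0.460 FPKM in NAC. None of these 4 was called by limma (adjusted p = 0.340, 0.260, 0.772 and 0.146).

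Of 24 further HIF targets tested, 6 were higher and 3 lower, beside 6.08% and 2.72% of all tested genes. P4ha1, the catalytic subunit of collagen prolyl 4-hydroxylase, was at 154, 152 and 157 FPKM in Control and 195, 184 and 179 FPKM in NAC (log2 fold change 0.27, limma adjusted p = 0.0139). The P4ha1 call was lost without Control 1, NAC 1 or NAC 2 (0.23 to 0.27) and under library totals (0.094). Lox, the collagen cross-linking enzyme, was at 641, 612 and 643 FPKM in Control and 748, 751 and 745 FPKM in NAC (log2 fold change 0.24, limma adjusted p = 0.0106). The Lox call was lost without NAC 1 or NAC 2 (0.24 without either) and under library totals (0.069). Plod2, a collagen lysyl hydroxylase, was at 116, 130.3 and 118 FPKM in Control and 139, 144 and 142 FPKM in NAC (log2 fold change 0.22, limma adjusted p = 0.0441). That of Plod2 was kept without Control 2 alone (0.19 to 0.23 without the others) and lost under library totals (0.049) and with no filter on low values. Ero1a, an oxidase of the endoplasmic reticulum that forms disulfide bonds, was at 94.0, 91.1 and 91.9 FPKM in Control and 106, 105 and 100.2 FPKM in NAC (log2 fold change 0.16, limma adjusted p = 0.0418). The Ero1a call was lost without any 1 of the 6 libraries (0.15 to 0.18) and turned to -0.011 under library totals. In P4ha1, Lox, Plod2 and Ero1a, as in the other higher genes of the list, the lowest NAC value lay above the highest Control value. Ddit4, an inhibitor of mTORC1, was at 51.2, 57.6 and 56.4 FPKM in Control and 71.2, 67.5 and 85.2 FPKM in NAC (log2 fold change 0.43, limma adjusted p = 0.0373). The Ddit4 call was lost without any 1 of the 6 libraries (0.33 to 0.49), under library totals (0.26) and with no filter on low values. Stc2, a secreted glycoprotein, was at 85.0, 75.6 and 86.9 FPKM in Control and 105, 103 and 99.6 FPKM in NAC (log2 fold change 0.31, limma adjusted p = 0.0251). The Stc2 call was lost without Control 1 or any 1 NAC library (0.29 to 0.33) and under library totals (0.14). Quantile normalization also ended the calls of P4ha1 (0.15), Lox (0.055), Plod2 (0.13), Ero1a (0.10) and Stc2 (0.24).

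Of the 3 lower genes of that list, 2 kept their call throughout. Hmox1, haem oxygenase 1, which HIF and the oxidant-responsive factor NRF2 both induce, was at 93.7, 106 and 90.2 FPKM in Control and 64.2, 61.8 and 69.3 FPKM in NAC (log2 fold change -0.56 ± 0.0731 SE, limma adjusted p = 0.00757). Angptl4, a secreted inhibitor of lipoprotein lipase, was at 408, 399 and 371 FPKM in Control and 307, 315 and 312 FPKM in NAC (log2 fold change -0.33 ± 0.0434 SE, limma adjusted p = 0.00758). Both calls were kept without any 1 of the 6 libraries and under all 13 alternatives. Bhlhe40, a circadian repressor, was at 43.7, 42.6 and 40.9 FPKM in Control and 36.6, 34.3 and 35.1 FPKM in NAC (log2 fold change -0.26, limma adjusted p = 0.0199). The Bhlhe40 call was lost without Control 1 or any 1 NAC library (-0.28 to -0.23).

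Branches from the glycolytic trunk held 6 more called genes. The counts of each branch stand beside 6.08% higher and 2.72% lower over all tested genes. In the pentose phosphate pathway 2 of 6 tested genes were higher. Rpia, ribose 5-phosphate isomerase, was at 13.7, 15.2 and 13.7 FPKM in Control and 18.5, 18.2 and 18.4 FPKM in NAC (log2 fold change 0.35, limma adjusted p = 0.0125). Tkt, transketolase, was at 89.0, 95.1 and 89.2 FPKM in Control and 104, 103 and 105 FPKM in NAC (log2 fold change 0.18, limma adjusted p = 0.0350). The Rpia call was lost without Control 3, NAC 1 or NAC 2 (0.33 to 0.36). The Tkt call was lost without any 1 library but Control 2 (0.17 to 0.19), when scaled to library totals (0.012) and under quantile normalization (0.11). Among 11 genes of pyruvate entry to the mitochondria 1 was higher and 1 lower. Pdp1, the phosphatase that activates pyruvate dehydrogenase, was at 9.30, 7.85 and 9.14 FPKM in Control and 10.5, 11.5 and 12.1 FPKM in NAC (log2 fold change 0.35, limma adjusted p = 0.0473). Pdk3, a kinase that inactivates it, was at 30.1, 31.04 and 31.5 FPKM in Control and 27.5, 27.4 and 27.3 FPKM in NAC (log2 fold change -0.17, limma adjusted p = 0.0431). Both calls were lost without any 1 of the 6 libraries, with log2 fold changes of 0.28 to 0.40 for Pdp1 and -0.18 to -0.15 for Pdk3. The Pdp1 call was also lost under library totals (0.19) and with no filter on low values.

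Among 11 tested isoforms and transporters of glycolysis outside the set, Adpgk, an ADP-dependent glucokinase, was higher at 23.6, 22.3 and 22.7 FPKM in Control and 27.1, 27.8 and 26.4 FPKM in NAC (log2 fold change 0.24, limma adjusted p = 0.0233). This call was kept without Control 2 or NAC 3 and lost without the others (0.22 to 0.26) and under library totals (0.068). Of 10 genes of glycogen and gluconeogenesis, Pgm1, phosphoglucomutase, was higher at 56.3, 58.4 and 56.0 FPKM in Control and 66.6, 63.4 and 63.2 FPKM in NAC (log2 fold change 0.18, limma adjusted p = 0.0413). The Pgm1 call was kept without Control 2 alone (0.15 to 0.19 without the others) and lost under library totals (0.0043) and quantile normalization (0.13). In the Myc and MondoA axis 0 of 8 tested genes were called by limma. Voom called 1, beside 8.28% higher and 4.06% lower over all tested genes. An unadjusted limma p under 0.05 was found for 3 of the 8, beside 1836 higher and 1519 lower of the 12733 tested genes. The most abundant gene of this axis, Txnip, a glucose-induced inhibitor of glucose uptake and thioredoxin, was at 133, 112 and 104 FPKM in Control and 160.4, 150.01 and 137 FPKM in NAC. NAC lay above Control in all 3 libraries, and the limma adjusted p was 0.0738 as deposited, 0.0236 with voom and 0.0374 without Control 1 (log2 fold change 0.46).

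The values depended on how the libraries were scaled. Library totals lowered all 29, and quantile normalization moved them unevenly, Adm from 0.29 to 0.070 and Eno1 from -0.064 to -0.31 but Pfkm only from 0.22 to 0.21. Under the authors' scaling the median of all tested genes was -0.0063, under voom's TMM scaling -0.0049, under quantile normalization -0.021 and under library totals -0.16. Relative to the all-gene median under library totals, Egln3 lay at 0.41, Car9 at 0.35, Pfkfb3 at 0.29, Adm at 0.28, Pfkm at 0.21 and Kdm3a at -0.26. The median of the 29 genes was 0.052 with voom, -0.060 with quantile normalization and -0.12 with library totals, where 6 of 29 lay above 0. Egln3 and Car9 were the 2 genes called higher under all 4 scalings. The abundant enzymes Aldoa, Pgk1, Pkm and Ldha, slightly above 0 under the authors' scaling and voom, lay below 0 under the other scalings. The 30 genes together took 1.21, 1.26 and 1.23% in Control and 1.13, 1.12 and 1.20% in NAC of the recovered reads.

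**Figure D5:**
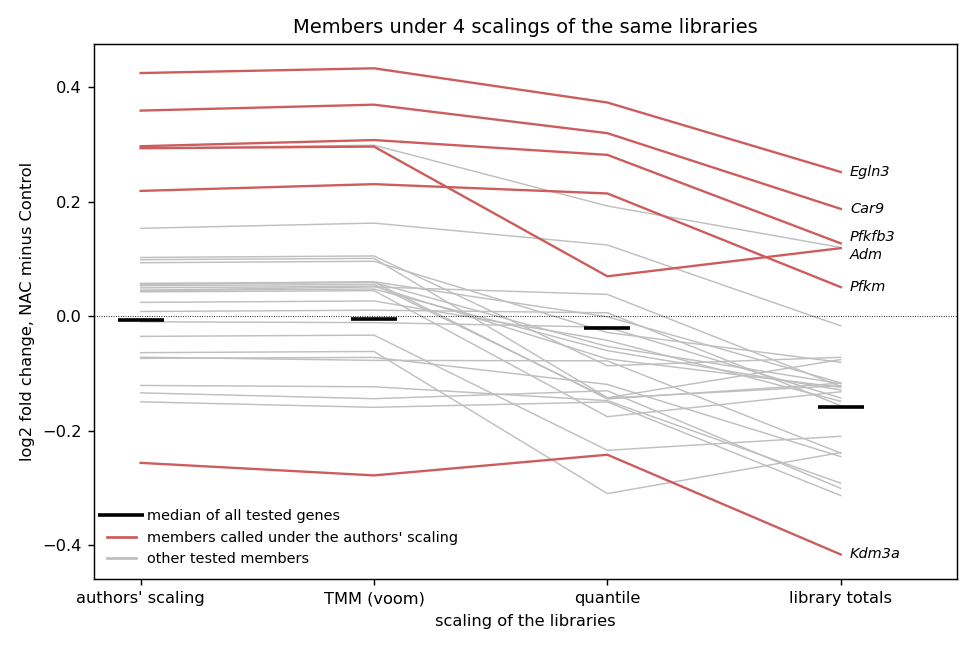
Log2 fold change (NAC minus Control) of the 29 tested genes under the authors' scaling, TMM with voom, quantile normalization and library totals, 1 line per gene, with black bars for the median of all tested genes. The 6 called genes keep their sign under all 4 scalings, and the whole set moves down with the median, to -0.16, under library totals.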

How the data were processed

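RNA sequencing of total RNA from 3 Control and 3 NAC libraries was deposited as a table of FPKM values, made by the authors from libraries of a SMARTer mRNA-Seq kit, per the labels' protocols. Per the submitters' processing notes the builds were GRCm38 and mm10, both of mouse, whereas the genes carry rat Ensembl identifiers (32545 of 33300). The build behind the table's coordinates, the aligner, the counting and its use of strand were not given in the sources used here. Reads of overlapping or antisense genes therefore cannot be told apart. The NAC columns name their samples. The other 3 were taken as Control by elimination.

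Deposited FPKM multiplied by gene length was a whole multiple of a step per library within 0.01 for 100% of values, and these multiples were taken as reads. Genes of at least 1 FPKM on average were tested on log2(FPKM + 1), a scale that understates changes of low genes, with limma 3.58.1 in R 4.3.3 (lmFit with group alone, eBayes with trend, two-sided tests and 95% intervals). Genes were named by rule: all members with a row (the row of highest mean where a name has several), every called gene of the other pathway lists, and the most abundant gene of a list with none called. Arnt, Vhl, Egln2, Hif1an, the isoforms given as shares or at low levels, and Cited2 were named beyond it, after their values were seen. The members and lists were chosen with earlier results of these data known. Of the 105 pathway genes 100 had a row, 4 under an older name. No pair of replicates agreed within sampling noise (chi-square of 3.66 to 9.53 per degree of freedom, highest with Control 2). This does not show whether libraries are separate cultures. Each library counted once in the fit. The same fit was also run on simulated data with known changes, and its outcome is not given here. The alternatives were a pseudocount of 0.1, no filter, a minimum of 5 FPKM, library totals, quantile normalization, voom with TMM on the recovered reads, the replicate number as a block and each library left out. Summing rows that the table describes as the same enzyme was added after the data were seen. Tables and figures used matplotlib 3.10.9, pandas 2.3.3 and numpy 2.4.6 in Python 3.11.15. Promoter windows came from RefSeq (GRCr8), and Pgk1 and Ndrg1 were not matched to one. Some genes are not reported here. Intervals and read numbers cover counting or library spread only.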

Additional observations from a re-analysis of the deposited data

How the results depend on the processing

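With 3 libraries a group, values near the threshold crossed it under most alternatives, and of the single-gene values 442 kept their direction and side of the threshold, 129 no longer passed, 14 newly passed and 32 turned direction. A pseudocount of 0.1, a minimum of 5 FPKM, voom and summing rows of the same enzyme kept the counts over all genes, the set and the pathway lists together within 1.5 times. Within single lists voom called 3 of 10 tested genes of glycogen and gluconeogenesis higher (1 without it) and 2 of 11 other glycolytic isoforms and transporters (1). It also called 1 of 8 genes of the Myc and MondoA axis (0) and 1 of 3 of lactate and pyruvate (0). Over all tested genes voom called 8.28% higher, beside 6.08% without it. With no filter on low values, limma called 207 of all genes with any FPKM lower, and 190 of the 12733 genes tested otherwise. Of the 30 genes of the set in that fit 0 were lower. At an unadjusted limma p under 0.05, 1 of the 30 was lower, beside 1526 of those 12733. Under library totals 467 genes were higher and 3722 lower, of the set 2 and 9, and of the pathway lists 2 and 23. With quantile normalization 3 of the set were lower and 5 pathway genes higher. Leaving out 1 library gave 264 to 859 genes higher and 51 to 347 lower, 1 to 7 and 0 to 1 of the set, and 1 to 12 and 2 to 4 of the pathway lists, in fits with fewer samples. Without Control 2 each of these 6 counts stayed within 1.5 times of that over all libraries. Where leaving out 1 library left 0 of the set lower, 1 or 2 were lower at an unadjusted limma p under 0.05. Over all tested genes these fits had 1148 to 1281 lower at that p.

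The direction turned under library totals, which shift the median of all genes to -0.16, in Slc2a1 (-0.12), Hk2 (-0.12), Gpi (-0.080), Pfkl (-0.15), Pfkp (-0.017), Aldoa (-0.12), Tpi1 (-0.16), Pgk1 (-0.076), Pgam1 (-0.072), Pkm (-0.13), Ldha (-0.12), Hif1a (-0.12), Vegfa (-0.12), Bnip3 (-0.13) and Ero1a (-0.011). With quantile normalization it turned in Slc2a1 (-0.00091), Gpi (-0.028), Pfkl (-0.042), Aldoa (-0.14), Pgk1 (-0.14), Pgam1 (-0.086), Pkm (-0.18), Ldha (-0.14), Hif1a (-0.075), Vegfa (-0.053) and Bnip3 (-0.060); the cause was not tested. Leaving out a library turned Tpi1 (-0.11 to 0.12 over the 6), Pkm (-0.014 to 0.081), Pdk1 (-0.14 to 0.012) and Ankrd37 (-0.084 to 0.11), none of them called.

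Replicate numbers are shared between the groups, but the deviations of same-numbered libraries correlated at only 0.0627, 0.0589 and -0.0502, so the numbers were not taken as pairs. With the replicate block 466 genes were higher and 110 lower, of the set 1 and 0 (limma), and 6 of the pathway genes were higher. At an unadjusted limma p under 0.05, 2 of the 29 were lower with the block, beside 1379 of all tested genes. Among the called genes of the set the block kept the call of Car9. Those of Pfkm, Pfkfb3, Egln3, Adm and Kdm3a were lost with it. Ankrd37, near 3 FPKM, has no value at a minimum of 5 FPKM.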

Other observations

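Some isoforms known from other tissues were scarce and others were not. Slc2a3, the neuronal glucose transporter, stayed at or under 0.168 FPKM, and Pklr, known from liver, Ldhc, known from testis, and Hk3 stayed under 0.25 FPKM in every library. Of the gluconeogenic genes Pck1 was listed at 0 in all 6 libraries, and Fbp1 and Fbp2 stayed under 0.06 FPKM. Among the pyruvate dehydrogenase kinases Pdk3 was the most abundant, with 43.2 ± 0.693% in Control and 40.8 ± 2.35% in NAC (SD, n = 3) of the summed FPKM, ahead of Pdk1 with 35.2 ± 1.16% in Control and 35.6 ± 2.20% in NAC. Aldoc, known from brain, was at 28.7, 27.9 and 30.9 FPKM in Control and 29.0, 28.5 and 29.1 FPKM in NAC, and Ldhb, known from heart, at 21.6, 24.4 and 18.0 FPKM in Control and 24.3, 26.2 and 23.9 FPKM in NAC. Neither was called (limma adjusted p = 0.894 and 0.241). Eno2, the neuronal enolase, was at 8.43, 6.55 and 4.29 FPKM in Control and 11.3, 5.45 and 6.16 FPKM in NAC, with overlap, and was not called (limma adjusted p = 0.715).

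Mif, a cytokine gene of the HIF target list singled out after its values were seen, was at 39.9, 381 and 31.3 FPKM in Control and 34.1, 31.9 and 42.7 FPKM in NAC. The value of Control 2 stood about an order of magnitude above the other 5 libraries, and Mif was not called (limma adjusted p = 0.471). Control 2 was also the highest library of its group in Cited2, which competes with HIF for its coactivator, at 149, 192 and 143 FPKM in Control and 124, 138 and 162 FPKM in NAC. Cited2 was not called (limma adjusted p = 0.434).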
